A study of Mus musculus with 6 samples.

Results

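The p53 genes described here are Trp53, which encodes the transcription factor p53, and 9 genes that p53 binds and activates directly. They were chosen by symbol from general knowledge of the pathway, but with earlier results of these data known. Of these 10 genes, 9 have a named row among the 25206 rows of the array table, 1 row per gene. Trp53 has no named row and was not analysed here. Expression was measured in mouse group 2 innate lymphoid cell (ILC2) lines, lymphocytes without antigen receptors that make type 2 cytokines. The knockout group holds 3 arrays of cells that received a lentiviral CRISPR construct with guide RNA against the gene of core-binding factor β (CBFβ, gene symbol Cbfb), the protein that stabilises RUNX transcription factors on DNA. The control group holds 3 arrays of cells that received the same kind of construct with a non-targeting guide. All cells were of the C57BL/6J strain, grown with 10 ng/ml of IL-2 and IL-33, and sorted for GFP 6 days after transduction. The GFP sort selects cells that carry the construct and not cells in which an edit took place. Only the knockout guide has a genomic site to cut, so effects of cutting and effects of losing CBFβ cannot be told apart in this design. Whether replicates were grown apart is not stated in the labels, so the p-values below reflect sample-to-sample spread that may be technical.

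p53 is held at low levels in resting cells because MDM2, a ubiquitin ligase, marks it for destruction. DNA damage, oncogene activity and other stresses release it, and it then switches on genes that halt the cell cycle, repair DNA, restrain growth signals or start apoptosis. Mdm2 is itself a p53 target, which closes a negative feedback loop. In lymphocytes this pathway is best known for removing cells with broken DNA and for limiting proliferation.

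The promoters are shown first because p53 acts through a recognisable DNA element, a pair of decamers that may be set apart by a few bases. RefSeq promoter windows of build GRCm38.p6 were matched by symbol for 6 of the 9 genes, which have 9 annotated starts in that table. Perp, Trp53inp1 and Zmat3 had no matched window and were not searched. The 250 bases before each start were searched for exact matches to the p53 decamer consensus, which reads the same on both strands. A decamer was present in 5 of the 9 windows and in 5 of the 6 genes, namely Cdkn1a, Mdm2, Ccng1, Sesn1 and Aen. Of all 32851 windows given, 7.13% hold a decamer, and so do 8.2% of the genes. The 6 genes were listed as direct p53 targets, so these counts describe them and do not test the list. The windows of Phlda3, of the downstream start of Cdkn1a and of a further start each of Sesn1 and Aen held none. Below, Cdkn1a and Mdm2 are printed over all 250 bases because both genes changed in the knockout arrays. Perp and Trp53inp1 also changed but had no window to print. For Ccng1 and Sesn1, targets that did not pass the test, 100 bases around the decamer are printed. Capitals mark the decamers, and each sequence runs 5′ to 3′ on the strand of its gene.
Cdkn1a, plus strand, chr17:29090729-29090978: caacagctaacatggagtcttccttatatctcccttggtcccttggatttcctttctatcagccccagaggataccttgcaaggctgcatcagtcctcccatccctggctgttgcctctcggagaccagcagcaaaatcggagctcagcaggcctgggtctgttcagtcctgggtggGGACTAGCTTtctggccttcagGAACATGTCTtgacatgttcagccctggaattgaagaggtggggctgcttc
Mdm2, minus strand, chr10:117710759-117711008: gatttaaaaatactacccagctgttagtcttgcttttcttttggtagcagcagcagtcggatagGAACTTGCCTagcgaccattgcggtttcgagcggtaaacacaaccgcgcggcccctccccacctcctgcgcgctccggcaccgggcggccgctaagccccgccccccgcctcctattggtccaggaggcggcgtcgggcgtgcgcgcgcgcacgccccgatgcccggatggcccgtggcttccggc
Ccng1, minus strand, chr11:40755417-40755516: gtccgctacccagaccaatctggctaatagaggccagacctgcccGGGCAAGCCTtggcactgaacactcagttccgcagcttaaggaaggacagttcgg
Sesn1, plus strand, chr10:41887221-41887320: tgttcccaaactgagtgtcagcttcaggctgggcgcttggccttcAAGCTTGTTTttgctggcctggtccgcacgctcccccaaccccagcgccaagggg

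The Cdkn1a window belongs to the more upstream of its starts, which lies 2790 bases before the other. It holds 2 exact matches, GGACTAGCTT and GAACATGTCT, whose first bases lie 73 and 51 bases before the start and which are separated by 12 bases. Directly after GAACATGTCT stands tgacatgttc, which departs from the consensus only at its first base and so was neither marked nor counted. The pair counted here need therefore not be the element that p53 uses. A pair of exact matches set apart by at most 13 bases was found in 0.0639% of all windows. Among the 6 genes only Cdkn1a has such a pair of exact matches. Directly before the decamer of Ccng1 stands agacctgccc, which departs from the consensus at a single base and was neither marked nor counted. The single decamer of Mdm2, GAACTTGCCT, begins 186 bases before its start. That of Aen, GGGCTTGTCC, begins 121 bases before the more downstream of its starts. The 2 Aen windows overlap, and this decamer lies after the more upstream start, so it is not printed. The RUNX hexamers TGTGGT and TGCGGT were searched on both strands of the same windows, because CBFβ is the partner of RUNX proteins. Of the 6 genes 2 had a match, Mdm2 (TGCGGT, 167 bases before the start) and the more upstream start of Aen (TGCGGT, 211 bases before it), against 18.6% of all windows and 20.9% of all genes. The Mdm2 match does not overlap its decamer. A match is a description of the letters and not evidence of binding. Bases outside these windows, including those after each start, were not searched, so elements of these genes may lie elsewhere.

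Values of the array table are on a log2 scale, so a difference of 1 is a doubling. The arrays had medians between 3.57 and 3.63, and their Pearson correlations across genes were 0.9946 to 0.996 within groups and 0.988 to 0.9908 between groups. Cbfb itself, the targeted gene, read 7.88, 7.69 and 7.91 in knockout arrays and 8.53, 8.73 and 8.70 in control arrays, a difference of -0.83 (limma adjusted p = 0.00205). The array measures neither the edit nor the protein. Of the RUNX genes, Runx1 rose by 1.28 on the log2 scale (limma adjusted p = 0.00121) and Runx3 differed by 0.24 (limma adjusted p = 0.198), while Runx2 has no named row and was not analysed here. Between the groups, 9.75% of all rows passed the limma test at an adjusted p of 0.05, 5.51% higher and 4.24% lower in knockout arrays. In 27.5% of all rows the knockout and control arrays had no overlap.

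p53 target genes did not move as a block in the knockout arrays. Of the 9 measured genes, 3 fell (Cdkn1a, Perp and Mdm2), 1 rose (Trp53inp1) and 5 did not pass the test (Ccng1, Aen, Phlda3, Sesn1 and Zmat3). The 4 that passed stand beside the 9.75% of all rows that passed, and 5 of the 9 genes had no overlap between the groups, beside 27.5% of all rows. All 9 genes read above 3.6, the median taken over both groups' row means, and among the 12603 rows above the median row mean 18.1% passed and 43.8% had no overlap. The changes ran from -0.74 to 0.60 on the log2 scale, with a median of -0.05, where the median over all rows was -0.007. The genes were named as p53 targets from general knowledge with earlier results of these data known, so these counts describe them and do not test the list. In bulk samples like these, fewer cells of a type and less RNA per cell cannot be told apart.

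**Figure D1:**
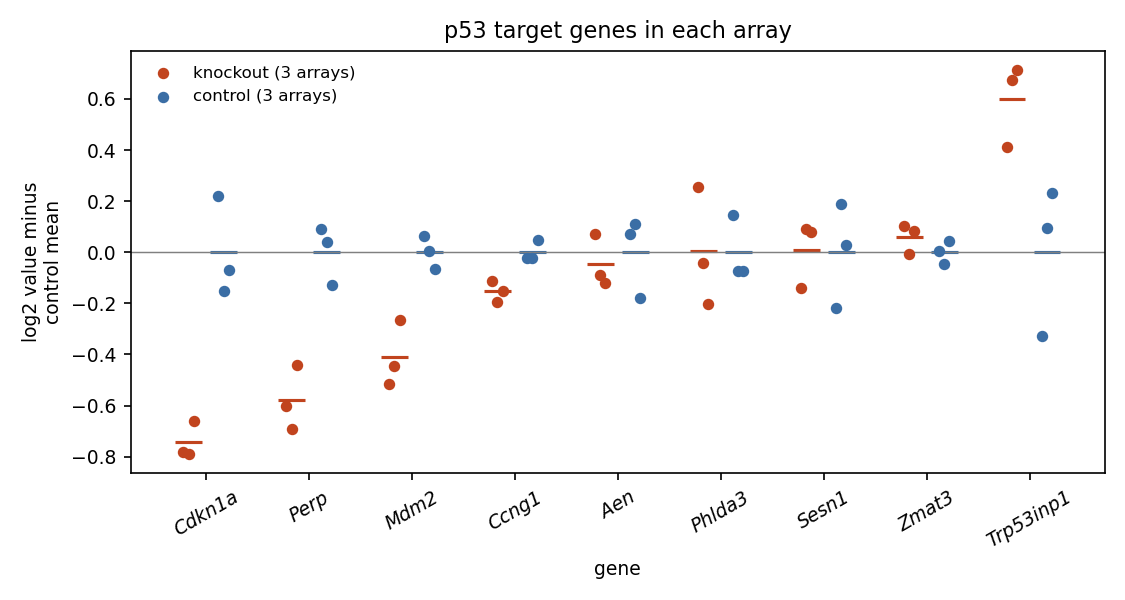
Log2 value of each p53 target gene in each array, minus the mean of that gene's 3 control arrays; points are arrays (knockout left, control right of each pair) and short lines are group means. Knockout points of Cdkn1a, Perp, Mdm2 and Ccng1 lie below all control points, those of Trp53inp1 lie above them, and the groups overlap for the other 4 genes.

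Cdkn1a (Entrez gene 12575) encodes p21, the inhibitor of cyclin-dependent kinases through which p53 stops the cell cycle. It read 9.25, 9.24 and 9.37 in knockout arrays and 10.25, 9.88 and 9.96 in control arrays. Every knockout array was below every control array, and the widest spread was among the controls. The mean was 9.29 ± 0.072 in knockout and 10.03 ± 0.19 in control arrays (SD, n = 3 arrays per group), a difference of -0.74 with a standard error of 0.11, or 1.67-fold lower (limma adjusted p = 0.00574). This was the largest change among the 9 genes in either direction and rank 654 by size among the 25206 rows. The fall of Cdkn1a passed the test in all 12 alternative fits, with adjusted p between 0.00016 and 0.026. The smallest difference, -0.63, came from the fit without control replicate 1, the array with the highest value.

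Perp (Entrez gene 64058) encodes a tetraspan membrane protein that takes part in p53-dependent apoptosis and, in mouse skin, in desmosomes. It read 5.64, 5.55 and 5.80 in knockout arrays and 6.33, 6.28 and 6.11 in control arrays, without overlap. The difference was -0.58 with a standard error of 0.10, or 1.49-fold lower (5.66 ± 0.13 and 6.24 ± 0.12 in knockout and control, SD, n = 3; limma adjusted p = 0.0109). Perp also passed in all 12 alternative fits, with adjusted p up to 0.0478 without control replicate 2.

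Mdm2 (Entrez gene 17246), the ubiquitin ligase of the feedback loop, read 8.67, 8.74 and 8.92 in knockout arrays. Its control arrays read 9.25, 9.19 and 9.12. All knockout arrays lay below all control arrays, with knockout replicate 3 nearest to them. The difference was -0.41 with a standard error of 0.095, or 1.33-fold lower (8.78 ± 0.13 and 9.19 ± 0.065 in knockout and control, SD, n = 3; limma adjusted p = 0.0316). Among the 6 fits that left out 1 array, Mdm2 passed only without knockout replicate 3 (adjusted p = 0.031). It missed the threshold without knockout replicates 1 (0.0925) and 2 (0.101) and without control replicates 1 (0.0905), 2 (0.1) and 3 (0.0662), with differences of -0.48 to -0.36 over the 6 fits.

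Trp53inp1 (Entrez gene 60599) encodes a stress-induced nuclear protein that aids p53 and also takes part in autophagy, and it was the 1 gene of the 9 that rose. It read 7.32, 7.58 and 7.62 in knockout arrays and 6.58, 7.0 and 7.14 in control arrays. The groups did not overlap, and control replicate 1 was the lowest array of all. The difference was 0.60 with a standard error of 0.15, or 1.52-fold higher (7.51 ± 0.16 and 6.91 ± 0.29 in knockout and control, SD, n = 3; limma adjusted p = 0.0478). This call was close to the threshold. It was lost without knockout replicates 1 (adjusted p = 0.0543), 2 (0.133) and 3 (0.139) and without control replicates 1 (0.0889) and 2 (0.0977), and it was lost when each array was centred on its median (0.0547). Without control replicate 1 the difference was 0.44.

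**Figure D2:**
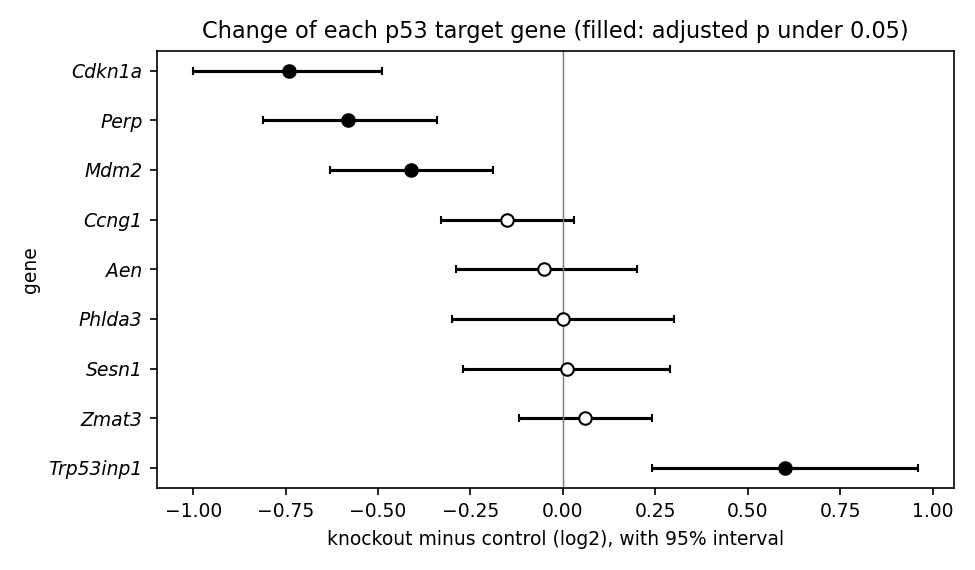
Difference between knockout and control means (log2, x axis) for each p53 target gene, with its 95% interval from limma; filled points passed the test at an adjusted p of 0.05. Cdkn1a, Perp and Mdm2 lie left of 0, Trp53inp1 lies right of it, and the intervals of the other 5 genes include 0.

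Ccng1 (Entrez gene 12450), which encodes cyclin G1, a partner of protein phosphatase 2A that acts on MDM2, read 8.96, 8.88 and 8.92 in knockout arrays and 9.05, 9.05 and 9.12 in control arrays. The groups did not overlap, but the difference of -0.15 did not pass (95% interval -0.33 to 0.03, limma adjusted p = 0.296). Its SD was 0.04 in each group, the smallest of the 9 genes in both.

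The 4 genes whose groups overlapped act in growth control, RNA processing and apoptosis. Zmat3 (Entrez gene 22401), an RNA-binding zinc finger protein gene, read 6.80, 6.69 and 6.78 in knockout arrays and 6.70, 6.65 and 6.74 in control arrays. Its difference was 0.06, with an interval of -0.12 to 0.24 (limma adjusted p = 0.739). Sesn1 (Entrez gene 140742) encodes a sestrin, a stress protein that restrains the growth kinase complex mTORC1. It read 6.54, 6.77 and 6.76 in knockout arrays and 6.46, 6.87 and 6.71 in control arrays, with an interval of the difference of -0.27 to 0.29 (limma adjusted p = 0.978). Replicate 1 was the lowest array in both groups.

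Phlda3 (Entrez gene 27280), whose product competes with the kinase AKT for membrane lipids, read 4.27, 3.97 and 3.81 in knockout arrays and 4.16, 3.94 and 3.94 in control arrays. Its interval was -0.30 to 0.30 (limma adjusted p = 0.991), and its knockout SD of 0.23 was the largest of the 9 genes in that group. Aen (Entrez gene 68048), an apoptosis-enhancing nuclease gene, read 5.38, 5.22 and 5.19 in knockout arrays and 5.38, 5.42 and 5.13 in control arrays. The interval of its difference was -0.29 to 0.20 (limma adjusted p = 0.859). For Phlda3, Sesn1, Zmat3 and Aen the intervals leave out changes above 0.30 in size, which is under the 0.41 of Mdm2. Phlda3 read close to 3.6, where the array method compresses differences, so a change of it could be understated.

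**Figure D3:**
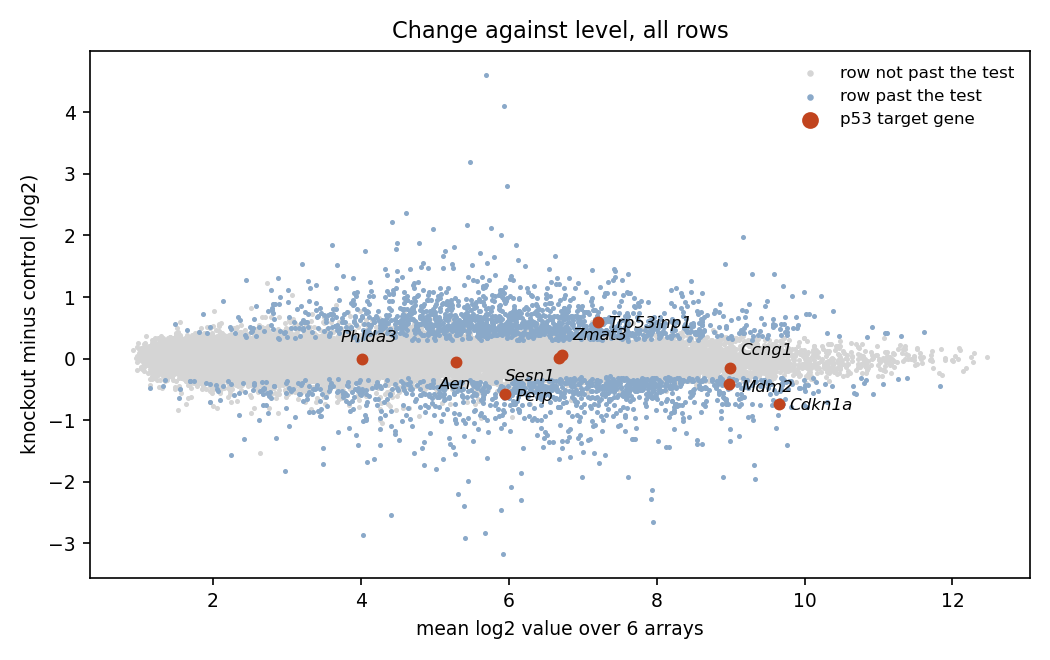
Knockout minus control difference (log2, y axis) against the mean log2 value over the 6 arrays (x axis) for all 25206 rows; grey rows did not pass the test, blue rows passed, and red points are the p53 target genes. The 9 genes all lie above a level of 3.6, and their changes, -0.74 to 0.60, sit well within the range of the blue rows.

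Most genes that sense damage, modify p53 or set its turnover did not pass the test. Of 20 measured genes of a list of 21, 4 rose (Chek2, Trp73, Trim24 and Mdm4), 1 fell (Rpl5) and 15 did not pass, with a median of 0.05. These counts stand beside 9.75% of all rows called and 18.1% of rows above the median row mean. Chek2, which encodes the checkpoint kinase CHK2 that signals from DNA breaks to p53, read 5.81, 5.95 and 6.09 in knockout arrays and 4.99, 5.17 and 5.02 in control arrays. No arrays overlapped, and the rise of 0.89 (1.85-fold, limma adjusted p = 0.00161) passed in all 12 alternative fits. Mdm4, a relative of MDM2 that blocks p53 activity, read 7.78, 7.64 and 7.63 in knockout arrays and 7.16, 7.37 and 7.39 in control arrays. It rose by 0.38 (limma adjusted p = 0.0472) while Mdm2 fell. Trp73, a p53 relative that can bind the same elements, rose by 0.56 (limma adjusted p = 0.0309), and the other relative, Trp63, read 2.81 and 2.78 in knockout and control, where changes can be understated (limma adjusted p = 0.907).

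Trim24, which encodes a ubiquitin ligase for p53, rose by 0.46 (limma adjusted p = 0.0283). Rpl5, a ribosomal protein gene whose product can bind and inhibit MDM2, fell by 0.34 (limma adjusted p = 0.0484). Ribosomal protein genes have many processed copies that array probes may not separate, so the Rpl5 value is uncertain. Cdkn2a, whose ARF product inhibits MDM2, read 7.99 ± 0.051 in knockout and 8.04 ± 0.059 in control arrays (95% interval of the difference -0.24 to 0.14, limma adjusted p = 0.79). Its row gives 1 value for the whole gene, so ARF was not read separately. Atm, the kinase gene of the DNA break response, read 6.20, 6.47 and 6.59 in knockout and 6.07, 6.16 and 6.09 in control arrays and did not pass (difference 0.31, limma adjusted p = 0.133). Of the calls in the list only Chek2 held in each fit that left out 1 array. Mdm4 (adjusted p 0.08 to 0.128) and Rpl5 (0.07 to 0.162), the 1 fall of the list, lost their calls whichever array was left out. Both also lost them when each array was centred on its median (limma adjusted p = 0.0513 and 0.0622). Of the fits that left out 1 array, Trim24 missed the threshold in 5, all but that without knockout replicate 1 (0.0369 to 0.0928). Trp73 missed it in the 4 without replicate 2 or 3 of either group (0.0331 to 0.102). The number of rises was 1 in each of those 4 fits.

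Other direct p53 targets also changed in both directions. In a list of 35, 33 were measured, 3 rose (Ddit4, Ddb2 and Fbxw7), 3 fell (Fas, Plk3 and Cd82) and 27 did not pass, with a median of 0.02. These counts stand beside the same 9.75% of all rows called and 18.1% of rows above the median row mean. Both group means lay under 3.6 in 4 of the 33 genes. Ddit4, which encodes the mTORC1 inhibitor REDD1 and also answers hypoxia and glucocorticoids, read 6.71, 6.81 and 6.91 in knockout arrays and 5.93, 5.89 and 5.94 in control arrays. Its rise of 0.89 (1.85-fold, limma adjusted p = 0.000766) was the largest in this list. Ddb2, a nucleotide excision repair gene that p53 activates in human cells, read 5.52, 5.91 and 5.88 in knockout arrays and 5.28, 5.12 and 5.09 in control arrays, a rise of 0.61 (limma adjusted p = 0.0186). Fbxw7, a substrate receptor of a ubiquitin ligase for cyclin E and MYC, rose by 0.45 (limma adjusted p = 0.0228).

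Among the falls, Fas, the death receptor gene, read 7.03, 6.78 and 6.94 in knockout arrays and 7.5, 7.68 and 7.54 in control arrays. The difference was -0.66, or 1.58-fold lower (limma adjusted p = 0.00547). Plk3, a stress-responsive polo-like kinase gene, read 7.0, 6.93 and 7.0 in knockout arrays and 7.63, 7.45 and 7.60 in control arrays, 1.5-fold lower (limma adjusted p = 0.00501). Cd82, a tetraspanin gene, fell by 0.41 (limma adjusted p = 0.0243). Ddit4, Fas and Plk3 passed in all 12 alternative fits. Ddb2 (adjusted p 0.00884 to 0.0711) and Cd82 (0.038 to 0.0886) missed the threshold in the 4 fits without replicate 2 or 3 of either group, and Fbxw7 in those and without control replicate 1 (0.0339 to 0.0768). The number of rises was 1 in each of those 4 fits.

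**Figure D4:**
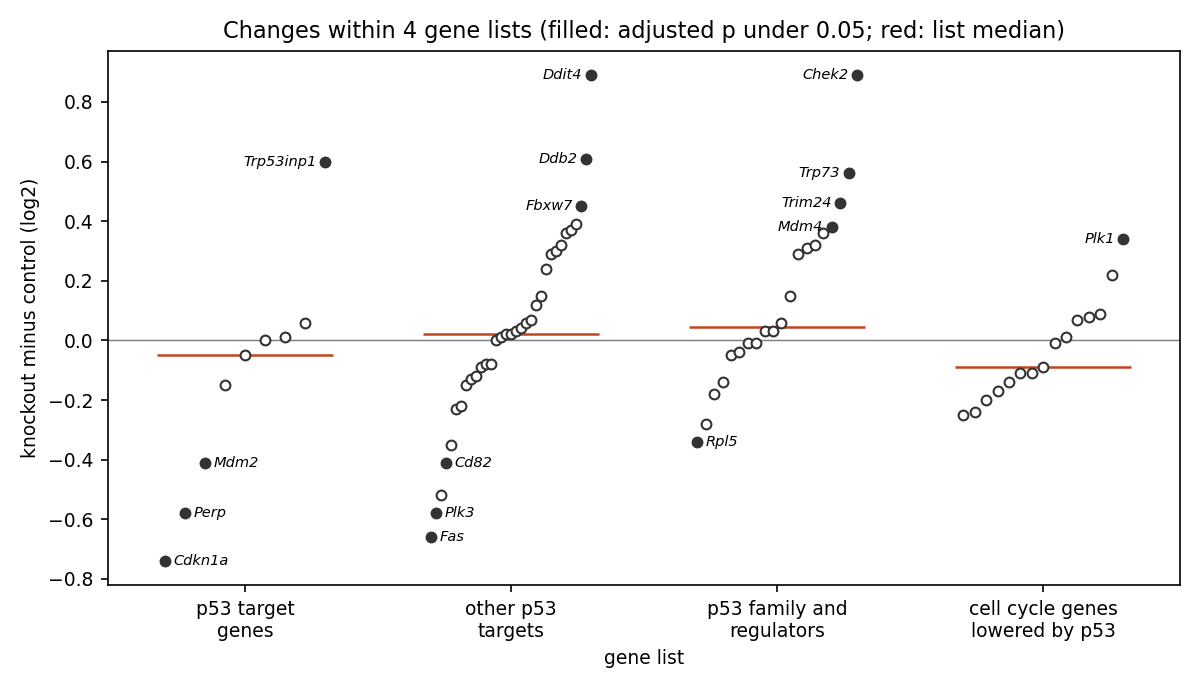
Knockout minus control difference (log2, y axis) of every measured gene in 4 lists, sorted within each list; filled points passed the test at an adjusted p of 0.05 and are named, and the red line is the list median. Each of the first 3 lists has filled points on both sides of 0, and the medians lie between -0.09 and 0.05.

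Cell cycle genes that fall when p53 induces p21 were read as a downstream group. Of 16 listed, 15 were measured, 1 rose, 0 fell by the limma test and 14 did not pass, where 9.75% of all rows passed. An unadjusted p under 0.05 was reached by 3 of the 15 genes and by 5780 of the 25206 rows, so neither count stands above its background. The median was -0.09, the changes ran from -0.25 to 0.34, and 6 of 15 were positive. Plk1, a mitotic kinase gene, read 8.66, 8.61 and 8.61 in knockout arrays and 8.40, 8.21 and 8.26 in control arrays, a rise of 0.34 (limma adjusted p = 0.0448). With 1 array left out, the call of Plk1 held only without control replicate 1 (adjusted p 0.0411 to 0.154 over the 6 fits). Cdk1, the kinase that drives mitotic entry, read 7.72, 7.55 and 7.66 in knockout and 7.86, 7.87 and 7.95 in control arrays and did not pass (limma adjusted p = 0.115). Cdc20, an activator of the anaphase-promoting complex, differed by 0.22 (limma adjusted p = 0.162).

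By a distance between values centred on each gene's own mean over the 6 arrays, the named rows most like Cdkn1a were Evi2b (distance 0.131 on the log2 scale), Rsph1 (0.144) and Ninj1 (0.148), among rows whose group means both exceeded 3.6. Ninj1 read 5.62, 5.71 and 5.74 in knockout arrays and 6.55, 6.32 and 6.42 in control arrays. Among the 9 p53 target genes, the array farthest from its group's median was knockout replicate 1 in 5, knockout replicate 2 in 1 and knockout replicate 3 in 3, where these arrays are farthest in 33.3%, 30.2% and 34.6% of all rows. In the control group it was replicate 1 in 4, replicate 2 in 1 and replicate 3 in 4 genes, beside 40.3%, 28.6% and 29.4% of all rows.

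Markers of ILC2s and of other cells were read beside these results. Both group means lay under 3.6 in 5 of 8 T cell, 4 of 4 B cell, 5 of 6 NK and ILC1, 5 of 6 myeloid and 7 of 8 mast cell and basophil markers. The T cell markers above that level were Cd3g (5.31 and 5.16 in knockout and control), Trac (5.07 and 5.68) and Cd8a (4.14 and 4.70), named after their values were seen. The counts that follow stand beside 9.75% of all rows called and 18.1% of rows above the median row mean. Of 10 measured ILC2 markers, 1 rose (Rora, by 2.22) and 3 fell (Icos, by 0.78, Il7r, by 0.56, and Il5, by 0.33). Rora read 5.53 in knockout and 3.32 in control arrays, so its control mean lay under 3.6 and the size of its rise is uncertain. Thy1 read 3.41 in both groups, also under that level. Of 8 T cell markers Trac fell by 0.61, of 6 NK and ILC1 markers Prf1 fell by 0.49, and Cpa3 fell by 2.91 among 8 markers of mast cells and basophils. Of 7 stromal and epithelial markers Dcn rose by 0.65 and Pecam1 fell by 0.31. None of 4 B cell or 6 myeloid markers passed the limma test, with 1 and 0 at an unadjusted p under 0.05. Summed on the linear scale, the T cell markers read 126 to 134 in knockout and 150 to 158 in control arrays, the NK and ILC1 markers 242 to 273 and 336 to 359, and the mast cell and basophil markers 53 to 62.1 and 144 to 185. The gaps between the groups in these sums rest largely on 1 gene each. Without Prf1 the NK and ILC1 markers read 32.9 to 42.4 and 35.6 to 44.3, without Cpa3 the mast cell and basophil markers 37.3 to 45 and 41.7 to 44, and without Trac the T cell markers 92.8 to 100 and 95.8 to 109, with overlap in each case. The sums for ILC2 markers were 16600 to 17100 and 18900 to 19100, and for stromal and epithelial markers 1900 to 1940 and 2240 to 2330, in the same order. The stromal and epithelial sum rests largely on Pecam1 (10.61 in knockout and 10.92 in control), followed by Epcam (8.0 and 7.99). The other genes of that list had group means of at most 5.0. For B cell markers the sums were 22.6 to 25.1 and 21.1 to 22.6, and for myeloid markers 42.1 to 51.7 and 42.2 to 47.2. The part of these marker differences in the changes of Cdkn1a, Perp, Mdm2 and Trp53inp1 was not tested. Il5 and Pecam1 lost their calls whichever array was left out (adjusted p 0.0701 to 0.116 and 0.0825 to 0.124), Dcn in 4, without knockout replicate 2 or 3 or control replicate 1 or 3 (0.0207 to 0.061), and Prf1 in 2, without control replicate 2 or 3 (0.0304 to 0.0655).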

How the data were processed

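Biotin-labelled total RNA was measured on arrays of 1 colour, per the labels. The authors deposited log2 expression values for 6 arrays, made with RMA and limma 3.14.4 per the submitters' processing notes, which give neither tool a role. The log2 scale was read from the values (0.66 to 12.51). RMA makes the arrays' distributions alike, which hides any shift common to most genes, and no detection calls are given. Of 25206 rows, 23185 have 1 gene symbol and 2021 have none; all 23185 were matched by Entrez number to RefSeq (GRCm38.p6).

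The deposited values were fitted with limma 3.58.1 in R 4.3.3, contrast knockout minus control, with Benjamini-Hochberg adjustment over all rows and a threshold of 0.05. The number of arrays limits the precision. Same-numbered arrays did not deviate together (r = 0.025, 0.007 and 0.054), so the numbers were not used as pairs. The genes and lists were chosen with earlier results of these data known. Named were the 10 pathway genes, Cbfb, the RUNX genes, Trp63, Trp73, Mdm4, Cdkn2a and Atm, up to 8 called genes per list (the 3 with the smallest adjusted p where fewer than 3 passed), called markers, and the 3 genes nearest to Cdkn1a. The 12 alternatives were 6 fits leaving out 1 array each, repeated quantile normalisation, median centring, a level filter, a trended robust prior, array weights and the replicate number as a block. The fit was also run on simulated arrays with planted changes and independent noise. That run checked the code and does not bear on calls of the sizes reported here.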

Additional observations from a re-analysis of the deposited data

How the results depend on the processing

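Cdkn1a and Perp kept direction and call in all 12 alternatives, whereas Mdm2 passed in 5 and Trp53inp1 in 6. Over the 6 fits that left out 1 array, 763 to 1113 rows were higher and 544 to 786 lower, against 1389 and 1068 with all arrays; fewer arrays go into each of these fits. In the same fits 0 to 1 of the 9 p53 target genes rose, 1 to 5 regulators rose and 0 fell, 1 to 3 other targets rose, and 0 to 1 of the cell cycle genes rose. Centring each array on its median left 0 of the 9 genes higher and 0 regulators lower. Restricting the test to rows above the median level gave 2 regulators, 5 other targets and 1 cell cycle gene lower, and the trended prior gave the same 3 counts (2, 5 and 1) with 1626 rows lower in all. With the replicate number as a block, 1 regulator and 0 cell cycle genes were higher and 0 regulators lower, and Mdm2 had an adjusted p of 0.0817. Of the 6 arrays, 3 deviated most like an array of their own number. Differences near 0 that changed sign passed no test. Sesn1 gave -0.02 after repeated quantile normalisation, -0.03 with array weights, -0.03 without knockout replicate 2 or 3, and from -0.1 (without control replicate 1) to 0.11 over the fits that left out 1 array. Trp63 gave -0.02 without knockout replicate 1, -0.01 without control replicate 3 and at most 0.1 over these fits, and Aen gave 0.01 without control replicate 2 and -0.14 at the lowest. The cause of these shifts was not tested. Values near background limit what can be said of Phlda3 and Trp63.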
